A study of Rattus norvegicus with 4 samples.

Results

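HOX genes and the homeobox families DLX, PITX, MSX, LHX, MEIS, PBX, PRRX, IRX and sine oculis (SIX-family) were followed in RSC96. This is an established rat cell line described as Schwann cells, which wrap and support the axons of peripheral nerves. Members were taken by gene symbol alone, as the family name (Hoxa to Hoxd for the HOX genes) followed by a number, with the highest row where a symbol had several. This gave 63 of the 17244 symbols in the table, of which 25 were HOX genes and 38 belonged to the other families. A further 19 protein-coding genes in RefSeq have symbols of this form but no row, 15 of them HOX genes such as Hoxa5, Hoxc10 and Hoxd11, and were not analysed here. All libraries came from cells of generation 4 that had been kept overnight in medium without serum. The treated group (2 libraries) then received recombinant rat IL-22, an IL-10 family cytokine that signals through STAT3, at 100 ng/ml for 48 h. The control group (2 libraries) was given the vehicle alone, 0.1% bovine serum albumin, and the labels name no duration for it. The labels do not say whether the libraries of a group came from separate cultures, so a p-value here speaks only to the variation among the libraries at hand, and that variation may be technical.

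Homeobox genes encode transcription factors that share a DNA-binding fold, the homeodomain. HOX genes lie in 4 clusters, Hoxa to Hoxd, and are numbered by paralog group from 1, expressed toward the head, to 13, expressed toward the tail and the ends of the limbs. Cells in culture often keep the HOX pattern of the body position they came from. PBX and MEIS proteins bind DNA together with HOX proteins, while DLX, MSX and PRRX factors pattern the face and limbs, SIX-family and LHX factors the eye, brain and sense organs, and IRX factors the neural tube, heart and limb buds.

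Levels are FPKM, which corrects fragment numbers for gene length and library size, so genes can be compared within a library. A difference is log2(FPKM + 1) with IL-22 less that of the controls, given with a standard error (SE) from limma, and a gene was said to rise or fall where the Benjamini-Hochberg adjusted p over all 9485 tested rows was under 0.05. Absolute depth was not given, and the spacing of low values put the libraries at 1 to 1.28 times the depth of control library 1. Of 10 Schwann cell marker genes 9 had a row, and their summed level was 2.47 to 3.17 FPKM over the 4 libraries. Cdh19 was listed at 0 throughout, and Sox10, S100b and Pou3f1 reached at most 0.0933 FPKM in any library, so the defining Schwann markers were close to absent. The 8 fibroblast markers summed to 489 to 496 FPKM, led by Thy1 and Col1a2. Dcn and Lum were listed at 0 and Col3a1 was at most 0.146 FPKM, so the list was not expressed as a whole. The sums of the macrophage and endothelial lists lay under 6.25 FPKM in each library. Neuron markers summed to 11.9 to 20.6 FPKM, nearly all of it Map2, and perineurial markers to 133 to 369 FPKM, nearly all of it the glucose transporter gene Slc2a1. Both of these genes rose with IL-22, and the part of any other cell type in the results below was not tested.

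Of the 63 members 32 averaged 1 FPKM or more across the 4 libraries and were tested. Another 5 lay between 0.1 and 1 FPKM, 7 were above 0 but under 0.1 FPKM, and 19 were listed at 0 in all 4 libraries. The best expressed were not HOX genes. Prrx2 had a higher level than 91.4% of all tested rows, Six3 than 89.3% and Lhx2 than 78.4%. The top HOX gene, Hoxb13, ranked 8 among the members and lay above 60.1% of tested rows. With IL-22, 15 of the 32 tested members fell, 5 rose and 12 did not pass, where 30.8% of all tested rows fell, 27.6% rose and 58.4% changed in either direction. As shares of the tested members, 46.9% fell and 15.6% rose. The rises include Lhx9, which averaged 1 FPKM or more only through the treated libraries. The median difference of the tested members was -0.25, against -0.022 over all tested rows. Most changes were small, and only Dlx2, Dlx1 and Msx1 differed by at least 1 with no overlap between the groups, a step that 7.52% of all tested rows made in either direction and 2.84% downward. The groups did not overlap in 27 of the 32 members, or 84.4%, and in 80.1% of all tested rows. An exact permutation test of 1 gene, 2 libraries against 2, cannot go below 0.333, so each call depends on the variance limma pools over genes.

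**Figure D1:**
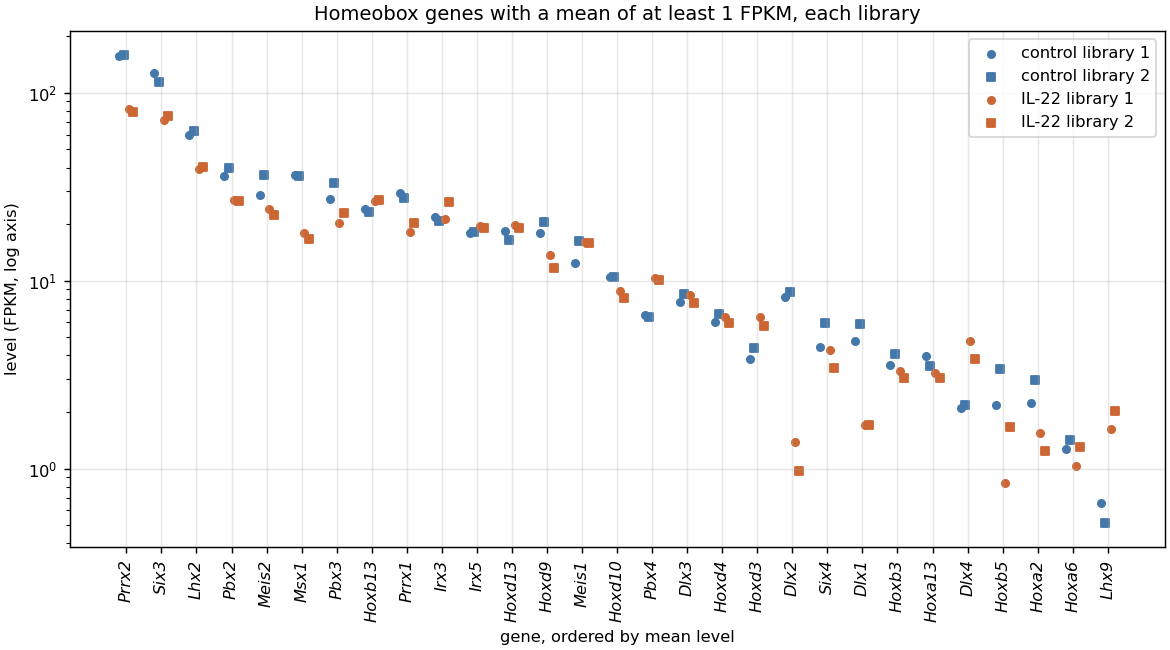
Level of 29 of the 32 tested homeobox genes in each library (FPKM, log axis), ordered by the mean over the 4 libraries. Prrx2 stands highest at 79.5 to 159.7 FPKM, and the largest gap between blue control points and orange IL-22 points is that of Dlx2.

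Among the 25 HOX genes with a row, the summed level was dominated by the tail end of the code. The 15 HOX genes without a row have no part in the shares below, so the shares of the full clusters are not known. Of the summed HOX level, genes of paralog groups 9 to 13 made up 75.9% and 73.4% in the control libraries and 74.8% and 73.2% with IL-22. Group 13 alone held 46.6% and 42.4% in controls and 50.9% and 51.9% with IL-22. The Hoxd cluster gave 53.5% to 57.5% of the sum over the 4 libraries and the Hoxb cluster 31.2% to 35.5%. The Hoxa cluster gave 10.1% to 11.6%. All 5 Hoxc genes with a row lay under 1 FPKM, with Hoxc8, Hoxc9 and Hoxc12 listed at 0, so the Hoxc cluster gave at most 0.806%. The sum over all 25 HOX genes was 99.8 and 102 FPKM in controls and 97.7 and 94.5 FPKM with IL-22, lower in both treated libraries by a small margin.

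Hoxb13, the last gene of the Hoxb cluster and known from the prostate and tail bud, measured 24.0 and 23.4 FPKM in controls and 26.6 and 26.9 FPKM with IL-22. Both treated libraries lay above both controls, but the difference of 0.17 ± 0.075 (SE) did not pass (limma adjusted p = 0.0800). It passed under quantile normalization (limma adjusted p from 0.0372 to 0.276 over 13 alternatives). Hoxd13, which shapes the digits, measured 18.5 and 16.5 FPKM in controls and 19.9 and 19.1 FPKM with IL-22 and did not pass (0.15 ± 0.09, limma adjusted p = 0.177). The Hoxb13 level exceeded that of Hoxd13 in every library, by 1.30 to 1.42 times. Hoxa13, which acts with Hoxd13 in the limb, was lower at 3.97 and 3.52 FPKM in controls and 3.21 and 3.03 FPKM with IL-22, and its difference of -0.20 passed only with quantile normalization among the alternatives (limma adjusted p from 0.0491 to 0.461). The posterior genes between these were uneven. In the gene order of RefSeq, Hoxd12 lies next to Hoxd13, yet it was listed at 0 in 3 libraries and measured 0.198 FPKM in control library 2. Hoxb9, the neighbour of Hoxb13, and Hoxa11, the neighbour of Hoxa13, were listed at 0 in all 4.

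Hoxd genes below group 13 differed in direction. Hoxd9, a gene of the lower trunk and limb, measured 18.0 and 20.6 FPKM in controls and 13.8 and 11.7 FPKM with IL-22. The groups did not overlap, and the fall of -0.57 ± 0.11 passed (limma adjusted p = 0.00184). Its neighbour Hoxd10, which is also known from motor neurons of the lower limb, measured 10.49 and 10.52 FPKM in controls and 8.81 and 8.06 FPKM with IL-22. That fall of -0.29 ± 0.10 was the smallest past the threshold among the members (limma adjusted p = 0.0314) and was lost without the filter on low rows and without any 1 of the 4 libraries (adjusted p from 0.0255 to 0.187 over 13 alternatives). Hoxd4, a hindbrain and neck gene, measured 6.01 and 6.69 FPKM in controls and 6.40 and 5.99 FPKM with IL-22. The groups overlapped, and it did not pass (-0.030 ± 0.11). Hoxd3, next to Hoxd4 and known for the formation of the first neck vertebrae, was the only HOX gene that rose among those tested. It measured 3.81 and 4.39 FPKM in controls and 6.40 and 5.77 FPKM with IL-22 (0.48 ± 0.12, limma adjusted p = 0.00892), a call lost without library 1 of either group (adjusted p from 0.00347 to 0.0607). Hoxd1, at the end of this cluster, was listed at 0 in all 4.

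**Figure D2:**
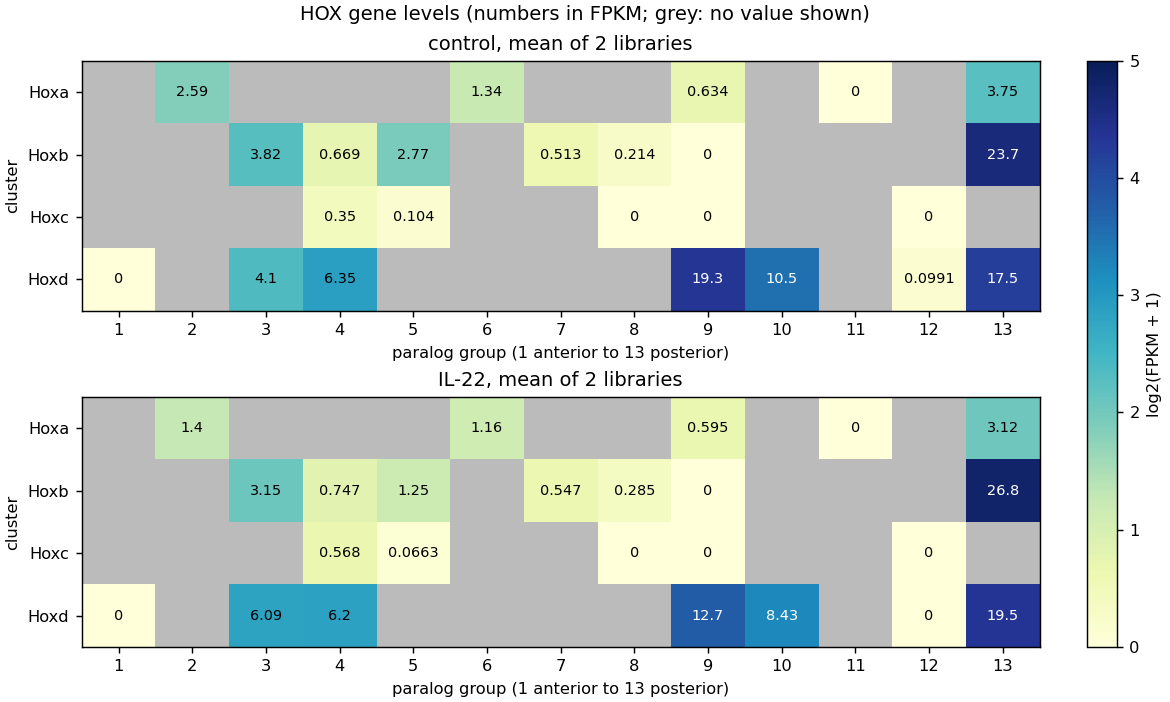
Mean HOX level per group of 2 libraries, by cluster (rows) and paralog group (columns), with the FPKM written in each cell, colour on the log2(FPKM + 1) scale, and grey where no value is shown. Hoxb13, Hoxd13, Hoxd9 and Hoxd10 are the darkest cells in both panels, and the Hoxc cells that hold a value are pale.

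HOX genes of the head end and upper trunk were present at lower levels. Hoxa2, which sets the identity of the second pharyngeal arch, measured 2.23 and 2.95 FPKM in controls and 1.55 and 1.24 FPKM with IL-22. This fall of -0.58 ± 0.17 (limma adjusted p = 0.0149) was lost without library 2 of either group (adjusted p from 0.00328 to 0.0857 over 12 alternatives). Hoxb3, another hindbrain gene, measured 3.56 and 4.08 FPKM in controls and 3.29 and 3.02 FPKM with IL-22 and did not pass (limma adjusted p = 0.192), though it did under quantile normalization (adjusted p from 0.0392 to 0.472). Hoxb5, which is used in the gut nervous system and lung, measured 2.17 and 3.38 FPKM in controls and 0.835 and 1.67 FPKM with IL-22. Libraries of the same group thus differed by up to 2-fold in a gene whose groups did not overlap. Its fall of -0.75 ± 0.22 (limma adjusted p = 0.0171) was lost without the filter, without control library 2 and without IL-22 library 1 (adjusted p from 0.000425 to 0.179). Hoxa6, a trunk gene, measured 1.27 and 1.42 FPKM in controls and 1.03 and 1.30 FPKM with IL-22, with overlapping groups. Hoxb4, Hoxa9, Hoxb7, Hoxc4 and Hoxb8 were between 0.120 and 0.924 FPKM in every library, and their groups overlapped.

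HOX genes gave 1 rise and 4 falls among 12 tested, or 33.3% lower, near the 30.8% of all tested rows, with a median of -0.16. The other families gave 4 rises, Lhx9 among them, and 11 falls among 20, or 55.0% lower, with a median of -0.44. Whether these 2 sets of genes differ was not tested.

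Cofactors of the HOX proteins were among the better expressed members, and PBX genes moved in opposite directions. Pbx2 measured 36.2 and 40.1 FPKM in controls and 26.8 and 26.6 FPKM with IL-22 (-0.50 ± 0.08, limma adjusted p = 0.000658). Pbx3 measured 27.4 and 33.0 FPKM in controls and 20.4 and 23.0 FPKM with IL-22 (-0.46 ± 0.10, limma adjusted p = 0.00482), a call lost without control library 2 (adjusted p from 3.94e-05 to 0.0596). Pbx4, otherwise known mainly from the testis, rose from 6.60 and 6.41 FPKM to 10.3 and 10.1 FPKM (0.58 ± 0.10, 1.57-fold, limma adjusted p = 0.000953).

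Of the MEIS genes, which encode TALE partners of both PBX and HOX proteins, Meis2 fell and Meis1 did not pass. Meis2 measured 28.7 and 36.5 FPKM in controls and 24.0 and 22.4 FPKM with IL-22 (-0.46 ± 0.11, limma adjusted p = 0.00615), a call lost without the filter on low rows (adjusted p from 6.99e-05 to 0.0535). Meis1 measured 12.4 and 16.2 FPKM in controls and 16.1 and 15.9 FPKM with IL-22, with overlapping groups (limma adjusted p = 0.268). Its direction rested on control library 1, since the difference of 0.16 was -0.018 without that library, and without control library 2 it passed at 0.34 (adjusted p from 0.0329 to 0.866). Meis3 was at most 0.140 FPKM.

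Dlx2 and Dlx1 gave the largest differences among the members, and both fell, while Dlx4 rose and Dlx3 did not pass. DLX genes sit in neighbouring pairs, Dlx1 with Dlx2 and Dlx3 with Dlx4, and act downstream of BMP signals in the jaw, skin and forebrain. Dlx2 measured 8.21 and 8.72 FPKM in controls and 1.38 and 0.966 FPKM with IL-22. This was the largest fall of any member, 7.21-fold in mean FPKM (-2.13 ± 0.14, limma adjusted p = 4.09e-06). Dlx1 measured 4.80 and 5.85 FPKM in controls and 1.710 and 1.709 FPKM with IL-22, a fall of 3.12-fold (-1.22 ± 0.14, limma adjusted p = 9.7e-05). Dlx2 stood above Dlx1 in both controls, at 1.71 and 1.49 times its level, and below it in both treated libraries, at 0.807 and 0.565 times. Dlx3, a gene of skin, placenta and tooth, measured 7.74 and 8.52 FPKM in controls and 8.43 and 7.60 FPKM with IL-22, so its groups overlapped (-0.019 ± 0.11). Its neighbour Dlx4 rose from 2.11 and 2.17 FPKM to 4.76 and 3.82 FPKM, 2.00-fold (0.75 ± 0.14, limma adjusted p = 0.00182). Dlx5 was listed at 0 in all 4. Dlx1 and Dlx2 together with Dlx3 and Dlx4 summed to 22.9 and 25.3 FPKM in controls and 16.3 and 14.1 FPKM with IL-22, and the share of Dlx2 in that sum dropped from 35.9% and 34.5% to 8.48% and 6.85%.

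**Figure D3:**
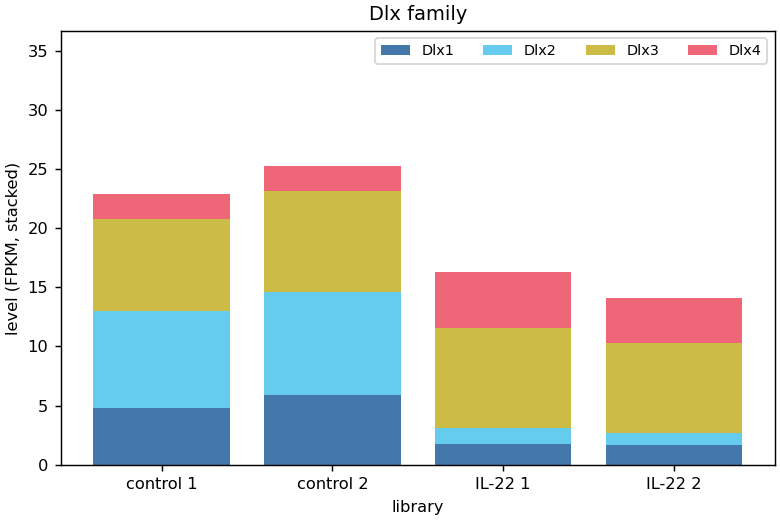
Stacked FPKM of the DLX genes above 0 in each of the 4 libraries, numbered within a group as in the labels. Dlx2, in light blue, shrinks from 8.21 and 8.72 FPKM to 1.38 and 0.966 FPKM, while Dlx4, in red, grows from 2.11 and 2.17 FPKM to 4.76 and 3.82 FPKM.

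Msx1, a BMP target that keeps limb, jaw and tooth cells undifferentiated, measured 36.5 and 36.2 FPKM in controls and 18.0 and 16.6 FPKM with IL-22. The libraries of each group lay close together, and the fall was 2.10-fold (-1.03 ± 0.08, limma adjusted p = 9.29e-06). Msx2 and Msx3 were listed at 0 in all 4 libraries. Both PRRX genes, which mark mesenchyme of the limb and face, fell. Prrx2 measured 157 and 159.7 FPKM in controls and 82.0 and 79.5 FPKM with IL-22, a fall of 1.96-fold (-0.96 ± 0.06, limma adjusted p = 3.46e-06). Prrx1 measured 29.5 and 27.6 FPKM in controls and 18.1 and 20.3 FPKM with IL-22 (-0.55 ± 0.09, limma adjusted p = 0.000642). Prrx2 was the more abundant of these throughout, at 5.34 and 5.79 times the level of Prrx1 in controls and 4.52 and 3.92 times with IL-22.

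Promoters are shown for the largest changes past the threshold that had an entry in the RefSeq promoter table, as the members that fell together (Dlx1, Msx1, Prrx2) and the largest rise among those with an entry (Pbx4). Of the 63 members 37 had an entry. Each is the 250 bases before the gene's start, 5′ to 3′ on the gene's strand, in the build GRCr8: Dlx1 at chr3:76763614-76763863 (+), Msx1 at chr14:77185552-77185801 (+), Prrx2 at chr3:34530081-34530330 (+) and Pbx4 at chr16:19623922-19624171 (-). Capitals mark the GC box GGGCGG and the CCAAT box on either strand.
Dlx1: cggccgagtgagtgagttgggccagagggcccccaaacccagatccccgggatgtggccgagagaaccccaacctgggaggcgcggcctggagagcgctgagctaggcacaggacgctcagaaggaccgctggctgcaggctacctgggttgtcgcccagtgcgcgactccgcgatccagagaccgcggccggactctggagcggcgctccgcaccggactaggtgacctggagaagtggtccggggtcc
Msx1: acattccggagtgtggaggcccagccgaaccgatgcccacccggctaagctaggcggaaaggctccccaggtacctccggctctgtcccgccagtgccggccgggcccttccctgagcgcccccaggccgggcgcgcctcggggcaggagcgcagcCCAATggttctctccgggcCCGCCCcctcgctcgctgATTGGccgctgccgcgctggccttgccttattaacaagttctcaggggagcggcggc
Prrx2: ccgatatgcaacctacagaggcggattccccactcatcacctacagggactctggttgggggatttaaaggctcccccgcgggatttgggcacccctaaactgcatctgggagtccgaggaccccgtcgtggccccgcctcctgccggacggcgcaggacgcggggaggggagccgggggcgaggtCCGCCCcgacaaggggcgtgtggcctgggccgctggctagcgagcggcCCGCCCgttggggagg
Pbx4: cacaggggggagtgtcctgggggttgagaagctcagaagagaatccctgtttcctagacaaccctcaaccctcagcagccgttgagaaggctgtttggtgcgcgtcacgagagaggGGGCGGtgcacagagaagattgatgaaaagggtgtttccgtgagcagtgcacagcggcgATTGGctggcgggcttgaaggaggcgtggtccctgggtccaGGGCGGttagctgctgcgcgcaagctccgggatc
The windows were rich in CpG, with 22 in Dlx1, 24 in Msx1, 23 in Prrx2 and 14 in Pbx4, against a median of 5 over the 33469 promoters of the table. GGGCGG was found 2 times in Prrx2 and in Pbx4, 1 time in Msx1 and not in the window of Dlx1, and 30.5% of all promoters hold it. CCAAT was found 2 times in Msx1 and 1 time in Pbx4, and 34.0% of all promoters hold it. The homeodomain core TAAT was found 1 time, in Msx1, where 57.0% of all promoters hold it. The PBX and HOX motif TGATNNAT (7.96% of all promoters), the MEIS motif TGACAG (15.8%), the STAT motif TTCNNNGAA (7.67%) and the TATA motif TATAAA (12.9%) matched none of these 4 windows. All motifs were searched on both strands. TAAT can overlap TGATNNAT.

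SIX-family and LHX genes were led by factors best known from the eye and forebrain. Six3, which patterns the forebrain and eye, measured 128 and 115 FPKM in controls and 71.5 and 75.8 FPKM with IL-22. The fall was 1.65-fold with a clear gap between the groups (-0.71 ± 0.07, limma adjusted p = 5.56e-05). Its neighbour Six2, a kidney progenitor gene, was listed at 0 in all 4 libraries, as was Six6. Six4, which acts in muscle and sensory placodes, was far lower. Six4 measured 4.47 and 5.97 FPKM in controls and 4.27 and 3.41 FPKM with IL-22 and did not pass (-0.36 ± 0.16, limma adjusted p = 0.0763), though it did with quantile normalization, with the replicate block and without IL-22 library 1 (adjusted p from 0.0364 to 0.394).

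Lhx2, a LIM homeodomain gene of forebrain, eye and hair follicle, measured 59.5 and 62.4 FPKM in controls and 39.2 and 40.2 FPKM with IL-22. The fall was 1.54-fold (-0.61 ± 0.07, limma adjusted p = 9.19e-05). Lhx9, its close relative, known from the gonad and limb, moved the other way. It measured 0.656 and 0.511 FPKM in controls and 1.62 and 2.02 FPKM with IL-22, 3.12-fold higher (0.83 ± 0.17, limma adjusted p = 0.00293). Lhx9 passed the filter of 1 FPKM only through the treated libraries, whereas the other 31 tested members reached 1 FPKM in both group means. Lhx4 was listed at 0 in each control and measured 0.0758 and 0.227 FPKM after IL-22, and Lhx1, Lhx5, Lhx6 and Lhx8 were listed at 0.

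Of the 6 IRX genes the neighbours Irx3 and Irx5 were expressed and Irx1, Irx2, Irx4 and Irx6 were listed at 0 in all 4 libraries. Irx3 measured 22.0 and 20.8 FPKM in controls and 21.3 and 26.1 FPKM with IL-22, with overlapping groups (0.14 ± 0.10, limma adjusted p = 0.281). That difference rested on IL-22 library 2 and was -0.0056 without it. Irx5 measured 18.0 and 18.1 FPKM in controls and 19.5 and 19.0 FPKM with IL-22 and did not pass either (0.089 ± 0.080, limma adjusted p = 0.365). Irx3 stood above Irx5 by 1.09 to 1.37 times in every library. The PITX genes, which pattern the hindlimb and pituitary, were at most 0.1000 FPKM.

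**Figure D4:**
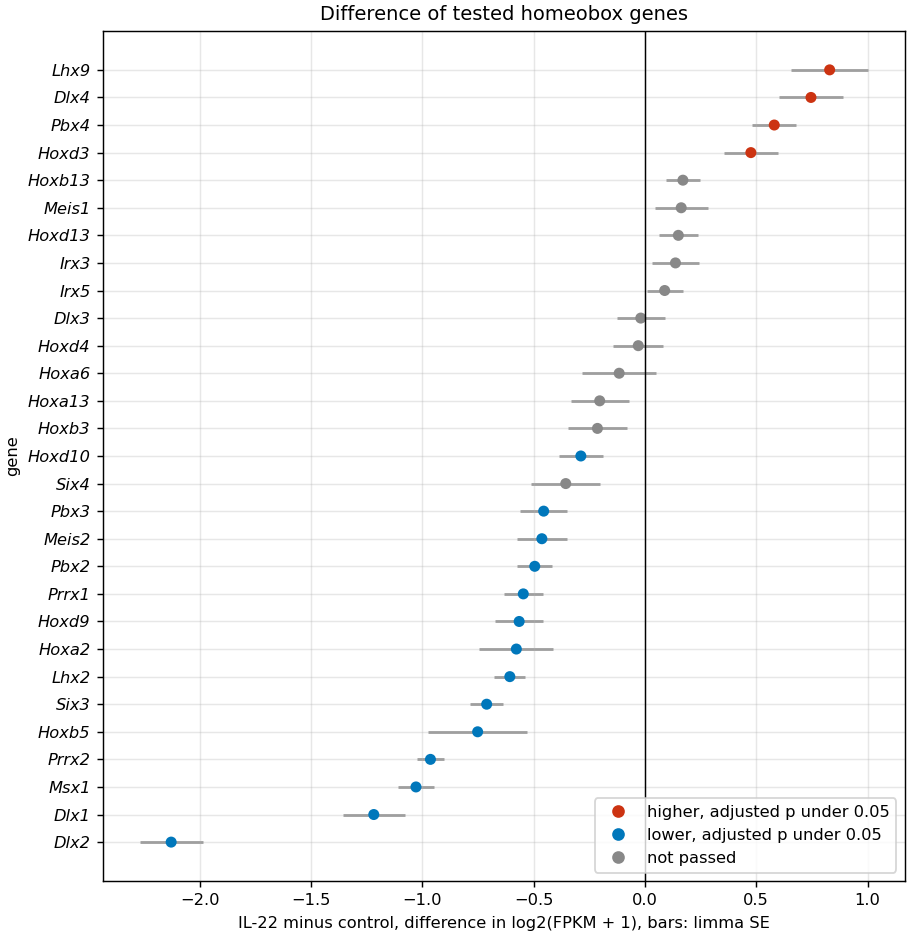
Difference of 29 of the 32 tested members between IL-22 and control in log2(FPKM + 1), with bars for the limma SE and colour for the call (red higher, blue lower, grey not passed). The falls run from -2.13 for Dlx2 to -0.29 for Hoxd10, and the rises from 0.48 for Hoxd3 to 0.83 for Lhx9. Lhx9 passed the filter of 1 FPKM only through the treated libraries.

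Reads shared between genes may limit some of these values. Strand was not stated, and 11 of the 32 tested members overlap another gene in RefSeq, among them Dlx1, Pbx3, Meis2, Prrx1, Irx5, Hoxb3, Hoxb5, Hoxd4, Hoxa6 and Six4. Reads of the partner may therefore be counted with theirs. The overlap is of whole gene spans in GRCr8, and whether exons are shared, or overlap in the build rn5, was not examined.

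Genes that act around the members were taken from 7 lists of regulators and partners. Over all tested rows 30.8% fell and 27.6% rose, and whether any list differs from those shares was not tested. BMP signals induce MSX, DLX and ID genes in many embryonic tissues. In the list of the BMP pathway and its targets 7 genes fell and 5 rose among 18 tested, with a median of 0.028. All 4 ID genes, which encode inhibitors of basic helix-loop-helix factors, fell. Id2 measured 45.9 and 48.7 FPKM in controls and 6.34 and 8.38 FPKM with IL-22 (-2.54 ± 0.12, limma adjusted p = 5.26e-07), and Id1 fell from 183 and 151 FPKM to 50.6 and 58.0 FPKM (-1.60 ± 0.10). Id4 (-1.30) and Id3 (-1.15) completed them, Id3 being named after its values were seen. Smad6, which restrains BMP signals and is itself a BMP target, fell from 27.7 and 23.2 FPKM to 7.37 and 8.97 FPKM (-1.53 ± 0.12, limma adjusted p = 9.88e-06). The tested genes of this list that rose were the receptor genes Acvr2b (0.82) and Bmpr2 (0.48), with Bambi (0.67), Smad4 (0.45) and Smad1 (0.17). The ligand gene Bmp2 averaged under 1 FPKM and was not tested. It measured 0.114 and 0.0886 FPKM in controls and 1.05 and 1.16 FPKM with IL-22. Without the filter on low rows, 6 genes of the list rose and 7 fell. The remaining falls were Fst (-1.01) and Bmpr1a (-0.63). All of these were named after their values were seen. Whether BMP signalling changed, or had a part in the changes of the members, was not tested.

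Polycomb proteins keep silent HOX genes in repressed chromatin, and trithorax proteins keep active ones open. Of 28 tested Polycomb genes 12 fell and 5 rose, with a median of -0.069, where 30.8% of all tested rows fell and 27.6% rose. Phf19, which recruits the repressive complex PRC2, fell from 26.8 and 25.9 FPKM to 7.45 and 8.01 FPKM (-1.65 ± 0.09, limma adjusted p = 1.28e-06), while its relative Phf1 rose from 15.7 and 17.3 FPKM to 28.7 and 27.7 FPKM (0.74 ± 0.08, limma adjusted p = 9.48e-05). Rbbp7 (-0.66) and Rbbp4 (-0.65), histone-binding subunits shared with other complexes, also fell. The PRC2 enzymes differed in direction, and both were named after their values were seen, with Ezh2 at -0.52 and Ezh1 at 0.48. Among 11 trithorax genes and H3K27 demethylases 6 fell and 3 rose (median -0.29). Kdm6b, which removes the Polycomb mark, rose from 12.1 and 11.9 FPKM to 30.4 and 31.0 FPKM (1.29 ± 0.08, limma adjusted p = 2.76e-06), and the subunits Ash2l (-0.64) and Wdr5 (-0.61) and their partner Hcfc1 (-0.60) fell.

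Retinoic acid turns on HOX genes from the head end of the clusters. Of 7 tested genes of its pathway 3 rose and 1 fell (median 0.14), where 27.6% of all tested rows rose and 30.8% fell. The receptor gene Rarg rose from 33.4 and 33.7 FPKM to 49.6 and 48.0 FPKM (0.53 ± 0.07, limma adjusted p = 0.000219). The other 3 calls, Rxrb (0.35), Crabp2 (0.25) and Dhrs3 (-0.46), were each lost without at least 1 of the 4 libraries. Rxrb was at 0.29 without control library 2 or IL-22 library 2, Crabp2 at 0.23 without IL-22 library 2, and Dhrs3 at -0.46, -0.45 and -0.36 without control library 1, control library 2 and IL-22 library 1. Among TALE and other HOX partners 2 rose and 2 fell of 10 (median 0.087), with Tgif2 (0.51) and the PBX-interacting Pbxip1 (0.27) higher. Pbxip1 lost its call without the filter and whenever any 1 library was left out (limma adjusted p up to 0.182). The corepressor gene Tle4 (-0.38) lost its call without control library 2 (-0.31), and so did Crebbp (-0.35), at -0.24. Crebbp lost it also without the filter (limma adjusted p = 0.0527). LIM homeodomain proteins work through Ldb1 and are held back by LMO proteins. Of 5 tested genes of that list 2 fell (median -0.17), Lmo4 from 113 and 106 FPKM to 73.7 and 73.1 FPKM (-0.57 ± 0.07, limma adjusted p = 0.000106) and Ldb1 by a smaller step (-0.26). Ldb1 lost its call with quantile normalization and when either treated library was left out (adjusted p by limma from 0.00431 to 0.0669). Of the partners of SIX-family proteins, Eya2 and Eya3 were tested and did not pass at an adjusted p of 0.130 and 0.111 by limma. The Eya2 difference of -0.20 depended on the libraries used. It was -0.35 without control library 1 and ranged from -0.35 to -0.053 over 13 alternatives.

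**Figure D5:**
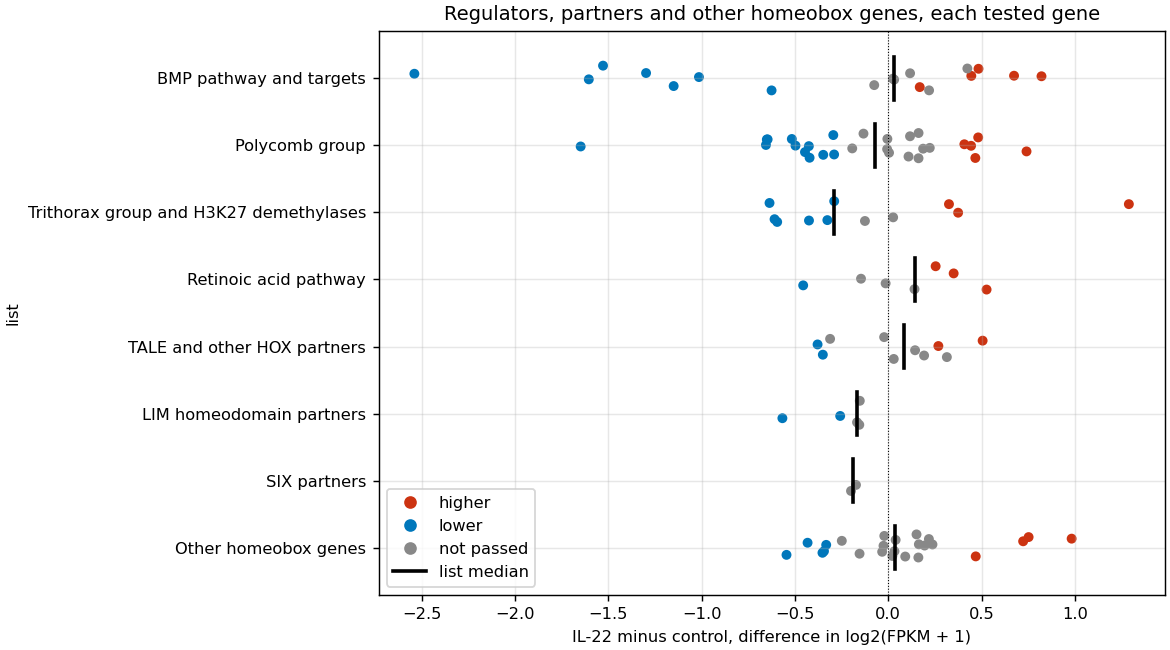
Each tested gene of the regulator and partner lists and of the list of other homeobox genes, as the difference between IL-22 and control in log2(FPKM + 1), with a black bar at the list median and colour for the call. The leftmost point is Id2 at -2.54 and the rightmost is Kdm6b at 1.29, and the list medians lie between -0.29 and 0.14.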

How the data were processed

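Poly(A) RNA was sequenced on an Illumina instrument after 12 cycles of PCR, per the labels' protocols. FPKM for 17778 gene rows were deposited with a column for each library. The submitters' processing notes name TopHat2, Cuffdiff and the build rn5. Tool versions and roles and the annotation were not given in the sources used. The lncRNA table was not used, since its identifiers are not tied to homeobox genes.

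The test was limma 3.58.1 (R 4.3.3) on log2(FPKM + 1), which understates changes of low genes, for rows averaging 1 FPKM or more, with moderated two-sided p-values, a mean-variance trend, no covariates and Benjamini-Hochberg adjustment. Folds are ratios of mean FPKM. No test was made over the members or lists. On simulated data with 9485 rows 1.5-fold changes were found in 98% of 50 genes and 2-fold changes in 100%, beside 10 false calls. Those folds were of FPKM + 1, so the rates do not hold for folds in FPKM of low genes. The noise was independent, with a spread smoothed from these same libraries, and far fewer rows were changed than were called in the data. The simulation thus cannot give the rates for the real rows. Members, the 8 lists and the marker lists were chosen with earlier results of these data known. Of the tested members 29 were named, and the other 3 and a marker gene are not reported here. From each list, the text names up to 4 genes past the threshold by size of difference, or the 2 highest where none passed. Of 6 members with several rows the highest row was used. RefSeq tables (GRCr8) gave names, gene order and promoters, and all 63 members matched a symbol. Relative depth came from the commonest ratio of rows under 0.15 FPKM. Alternatives were other pseudocounts, filters, scalings and variance models, the replicate number as a block, and leaving out each library.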

Additional observations from a re-analysis of the deposited data

How the results depend on the processing

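Of the 20 members that rose or fell, 13 kept their call and direction in all 13 alternatives that could test them; those that did not included Hoxd10, Hoxb5, Hoxa2, Hoxd3, Meis2 and Pbx3, each with its values above. The count of members that rose went from 5 to 3 with a filter at 5 FPKM, where fewer members are tested, and lay from 4 to 6 as each library was left out. The count that fell, 15, was 10 with that filter, 12 without a filter and 18 with quantile normalization, and lay from 11 to 13 as each library was left out. The median difference of the members, -0.25, was -0.15 with a pseudocount of 5, -0.028 without the filter, where low members enter, -0.16 with a filter at 5 FPKM and -0.38 with quantile normalization, and from -0.30 to -0.22 as each library was left out. The number of members at 1 FPKM or more was 32, with 35 at a minimum of 0.5 FPKM and 29 at a minimum of 2 FPKM. Among the members that did not pass, 4 changed direction as single libraries were left out, over a range from -0.018 to 0.34 for Meis1 (negative without control library 1), from -0.0056 to 0.28 for Irx3 (negative without IL-22 library 2), from -0.086 to 0.048 for Dlx3 and from -0.096 to 0.036 for Hoxd4 (both positive without control library 2 or IL-22 library 2). Replicate numbers were not shown to pair the libraries: the difference between libraries 1 and 2 correlated with a Pearson r of -0.0020 between the groups, across 9485 genes, which are not independent replicates. With the replicate block 5 members rose and 16 fell, with Six4 (-0.36, adjusted p = 0.0394) added. Where a library was left out, the lone one remaining was taken to vary as the other group does. Depth limits the members under 1 FPKM most, where levels rest on few reads.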

Other observations

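Homeobox genes of other families were also present in the line. Of 105 such genes, 92 had a row and 24 were tested, of which 4 rose and 5 fell (median 0.04). Over all tested rows 27.6% rose and 30.8% fell. The repressor gene Zeb1, which drives mesenchymal states, rose from 22.2 and 24.6 FPKM to 40.0 and 40.1 FPKM (0.75 ± 0.08, limma adjusted p = 5.82e-05). Nkx2-3 (0.98), Onecut1 (0.72) and the forebrain gene Emx2 (-0.55) also changed. Several position and lineage genes were expressed and did not pass, and they were picked after their values were seen. Pax3, a neural crest and muscle gene, measured 14.7 and 18.3 FPKM in controls and 17.1 and 18.0 FPKM with IL-22. The limb gene Shox2 measured 17.8 and 16.1 FPKM in controls and 17.3 and 17.5 FPKM with IL-22. Cdx2, an upstream activator of HOX genes, measured 12.2 and 11.7 FPKM in controls and 10.4 and 9.49 FPKM with IL-22. Its difference was -0.25 ± 0.10 (limma adjusted p = 0.0506).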
